A study of Mus musculus with 90 samples.

Results

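The comparison described here is of the cortex of Q175 mice given the lowest dose of PF-02545920 with the cortex of Q175 mice given vehicle. PF-02545920 is an inhibitor of the phosphodiesterase PDE10A. The libraries were chosen by their titles: 10 at 0.32 mg/kg (5 females and 5 males) and 7 on vehicle (5 females and 2 males), which is 17 of the 45 cortex libraries and of 90 libraries in all. All 17 mice were on a C57BL6/J background and homozygous for the Q175 allele, in which the mouse Htt gene carries a long CAG repeat, as a model of Huntington's disease. Both groups were dosed orally once a day, starting at 5 weeks, and were 9 months old at sampling. The other cortex groups, used below for comparison, were Q175 mice at 1.0 mg/kg (10) and 3.2 mg/kg (9), and wild-type (WT) mice on vehicle (9). Each library came from the right cortex of a different mouse, so the replicates are mice, and a mouse is named here by its sex and number (F4 is female 4 of its group).

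PDE10A breaks down cyclic AMP and cyclic GMP, the second messengers made by adenylyl and guanylyl cyclases, and it is concentrated in the medium spiny neurons of the striatum, with far less in the cortex. The cyclic nucleotides act through protein kinases A and G, cyclic nucleotide-gated channels and the transcription factor CREB, which drives activity-regulated genes. RNA-seq counts also carry a technical dependence on base composition: amplification and sequencing recover fragments rich or poor in G and C with different efficiency from library to library, which can move many genes together. A gene's fold change between groups can therefore hold a part that follows its GC content and a part that does not.

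The 17 libraries held 37.3M to 44.8M counts each, with a median of 41.0M in the dosed group and 42.5M in the vehicle group. The sex on the labels matched Xist in all 10 females, each above every male. Genes of cortical excitatory neurons were at summed levels of 5053 to 5532 CPM (counts scaled to library size) in dosed mice and 5252 to 5590 CPM in vehicle mice, and medium spiny neuron genes at 1403 to 1717 CPM in dosed mice and 1375 to 1616 CPM in vehicle mice. In bulk tissue, fewer cells of a type and less RNA per cell cannot be told apart.

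The most widespread difference between the groups followed base composition. Each library was given a GC slope, the change of its log2 CPM, relative to each gene's mean over the 45 cortex libraries, per 10 percentage points of exonic GC content. The slopes of the dosed libraries ran from -0.107 in M5 to 0.0734 in M4 and those of the vehicle libraries from -0.00305 in F3 to 0.0929 in F2. Of the 10 dosed libraries, 9 lay below all 7 vehicle libraries, and M4 alone lay among them. The slope averaged -0.0542 ± 0.0506 in dosed libraries and 0.0465 ± 0.0310 in vehicle libraries (SD, n = 10 and 7), a difference of -0.101 (two-sided exact permutation test, p = 0.000874, adjusted p = 0.00122 over 7 such tests). Reads of the dosed libraries thus lay more often in AT-rich genes: the mean GC content weighted by counts was 48.7% ± 0.150 in dosed libraries and 49.1% ± 0.0699 in vehicle libraries (exact permutation test, p = 0.000411, adjusted p = 0.000720). This mean gives most weight to abundant genes and was not computed without the mitochondrially encoded ones. Without those genes the GC slope differed by -0.100 (exact permutation test, p = 0.00103). Within the females the slope differed by -0.119 (exact permutation test, p = 0.00794, 5 against 5), and among libraries whose names carry L numbers 5 to 8 by -0.0886 (exact permutation test, p = 0.00932, 6 against 7). The labels do not explain the L number.

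**Figure D1:**
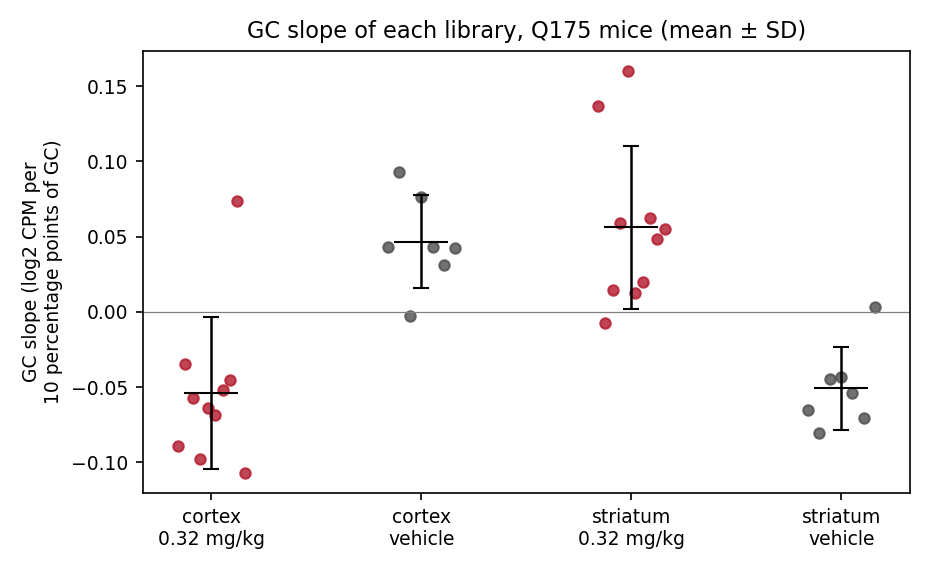
GC slope of each library (log2 CPM per 10 percentage points of GC, y axis) in the cortex and striatum of the 10 Q175 mice at 0.32 mg/kg and the 7 on vehicle. Points are libraries, and bars are mean ± SD. Dosed libraries lie mostly below vehicle libraries in the cortex (-0.0542 against 0.0465) and mostly above them in the striatum (0.0561 against -0.0508).

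In the striatum of the same mice the trend ran the other way. The GC slope averaged 0.0561 ± 0.0543 in dosed striatum libraries and -0.0508 ± 0.0275 in vehicle striatum libraries, a difference of 0.107 (exact permutation test, p = 0.000309, adjusted p = 0.000720). Taken per mouse as cortex minus striatum, the slope was -0.110 ± 0.0818 in dosed mice and 0.0972 ± 0.0464 in vehicle mice (difference -0.208, exact permutation test, p = 0.000154, adjusted p = 0.000540). The slope on gene length did not differ detectably in the cortex, with -0.00468 ± 0.0489 log2 CPM per 10-fold of length in dosed libraries and 0.0192 ± 0.0486 in vehicle libraries (exact permutation test, p = 0.339). In the striatum it did, with -0.0355 ± 0.0407 in dosed libraries and 0.0236 ± 0.0357 in vehicle libraries (exact permutation test, p = 0.00848, adjusted p = 0.00990).

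Gene by gene, edgeR's quasi-likelihood test called 1789 of 17603 genes between the groups (10.2%) at a Benjamini-Hochberg adjusted p under 0.05. Of these, 912 were higher in dosed mice (5.18%) and 877 lower (4.98%). The genes called higher had a median GC content of 42.4%, the genes called lower one of 56.9%, and all genes tested one of 49.5%. Among the 1734 genes with the lowest GC content, up to 41.4%, the median log2 fold change was 0.11, with 363 genes called higher and 0 lower. Among the 1734 with the highest GC content, from 57.4%, it was -0.10, with 3 called higher and 383 lower. Across 17339 genes, which are not independent replicates, the rank correlation of fold change with GC content was -0.537.

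To separate single genes from this trend, each library received an offset per gene, a smooth curve of its deviation on GC content and length, and the same test was run again. With the offsets the rank correlation was -0.0105, the medians of these outer bins were both 0.01, and 199 of 17339 genes were called (1.15%): 137 higher (0.79%) and 62 lower (0.358%). There were 126 genes called in the same direction by both fits, 74 higher and 52 lower, which is 7.04% of the calls without offsets and 63.3% of those with them. A further 1662 genes were called only without offsets, 72 only with them, and 1 in opposite directions. CPM ranges of the groups did not overlap for 161 genes higher and 196 lower in dosed mice, 2.03% of those tested, and after adjustment for GC content and length for 71 higher and 31 lower (0.588%). The changes were small: 168 of the 199 genes had an absolute log2 fold change under 0.3, and 5 had one above 1. With the L number as a factor 327 genes were called without and 55 with the offsets, in females alone 1148 and 59, and in males alone 2 and 5. Leaving out 1 vehicle library took the counts without offsets to 923 (F2) or 1027 (F4), and those with offsets to 101 (F2), 115 (F5) or 131 (F1). The offsets take out whatever follows GC content and length smoothly, including any biological change that does so.

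**Figure D2:**
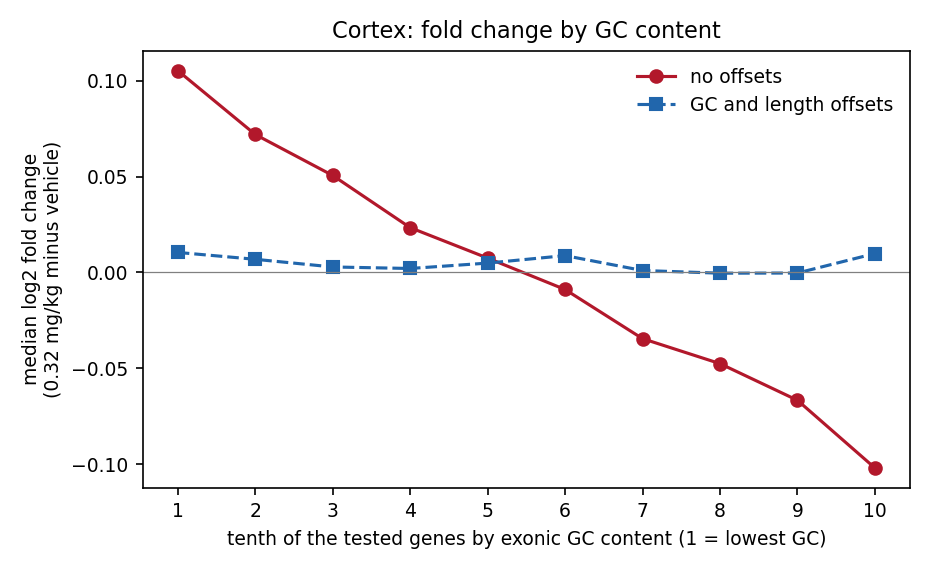
Median log2 fold change (0.32 mg/kg minus vehicle, y axis) of the tested genes in 10 equal bins by exonic GC content (x axis, lowest GC at the left), without offsets (circles) and with GC and length offsets (squares). Without offsets the median falls steadily, with 0.11 in the lowest-GC bin and -0.10 in the highest; with offsets it stays at 0.01 in both.

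The 5 genes with the smallest p that lost their call with the offsets are given as examples. They were picked for that loss, so they are no test of whether their differences follow composition, and part of each difference remained. Rusc1, which encodes an adaptor protein of neuronal vesicle traffic, has an exonic GC content of 57.3% (chromosome 3, GRCm38). It lay at 129 to 141 CPM in dosed mice (median 134) and 145 to 154 CPM in vehicle mice (median 149), without overlap. Its log2 fold change was -0.16 ± 0.0214 (SE, adjusted p = 1.50e-05), and with the offsets -0.06 ± 0.0194 (adjusted p = 0.157). Igbp1, a regulatory partner of protein phosphatase 2A with a GC content of 42.3%, moved the other way. It lay at 34.4 to 37.4 CPM in dosed mice (median 36.7) and 30.4 to 33.6 CPM in vehicle mice (median 32.3), also without overlap. Its log2 fold change was 0.16 ± 0.0254 (adjusted p = 1.73e-04), and 0.09 ± 0.0279 with the offsets (adjusted p = 0.108). Zer1 (53.4% GC), which recognizes substrates of a ubiquitin ligase, the valyl-tRNA synthetase gene Vars (60.3%) and the microtubule-associated Map1s (58.4%) fell by 0.16, 0.21 and 0.22 without the offsets, and were at -0.07, -0.05 and -0.08, not called, with them.

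The contrast in base composition is visible in stretches of their coding sequence, shown here because composition is what the trend follows. Each is 120 bases of coding sequence within 1 exon whose GC content is closest to that of the gene, from GENCODE M21 on GRCm38, with G and C in capitals. They come from Rusc1 (chr3:89092185-89092304, minus strand), Igbp1 (chrX:100495009-100495128, plus strand) and the mitochondrial gene mt-Nd4 (chrM:10177-10296, plus strand), and hold 57.5%, 42.5% and 35.8% G and C.
Rusc1: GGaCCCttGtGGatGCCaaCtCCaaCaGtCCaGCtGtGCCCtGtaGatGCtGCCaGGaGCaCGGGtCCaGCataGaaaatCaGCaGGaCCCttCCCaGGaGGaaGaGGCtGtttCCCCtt
Igbp1: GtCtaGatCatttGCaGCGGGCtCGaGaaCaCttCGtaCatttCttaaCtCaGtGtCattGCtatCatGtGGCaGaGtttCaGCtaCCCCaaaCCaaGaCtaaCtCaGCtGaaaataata
mt-Nd4: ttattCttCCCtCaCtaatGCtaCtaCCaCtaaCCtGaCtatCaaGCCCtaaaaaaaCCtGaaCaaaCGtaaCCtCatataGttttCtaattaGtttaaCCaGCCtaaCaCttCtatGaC

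The mitochondrially encoded genes, a functional group low in GC, moved together without offsets. These genes specify core subunits of the respiratory chain and the ribosomal RNAs of the mitochondrion, and their median GC content was 36.0%. Without offsets all 15 tested were called higher in dosed mice, with a median log2 fold change of 0.25 beside 0.00 over all genes. Their summed level was 79128 to 94164 CPM in dosed mice (median 88161) and 69600 to 80327 CPM in vehicle mice (median 75802), with a narrow overlap. mt-Nd4, a subunit of complex I, lay at 5642 to 7048 CPM in dosed mice (median 6381) and 5113 to 5938 CPM in vehicle mice (median 5457), and the groups overlapped at their edges. Its log2 fold change was 0.24 ± 0.0579 (adjusted p = 0.00790) without and 0.04 ± 0.0379 (adjusted p = 0.815) with the offsets. With the offsets 0 of the 15 were called and their median was 0.07. As the group is low in GC, a change of the group as such and the GC trend cannot be told apart here. With offsets and only L numbers 5 to 8, 2 of them were called. mt-Atp8, a subunit of the ATP synthase and the lowest in GC at 31.9%, kept the largest value at 0.21 ± 0.0646 (adjusted p = 0.107).

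**Figure D3:**
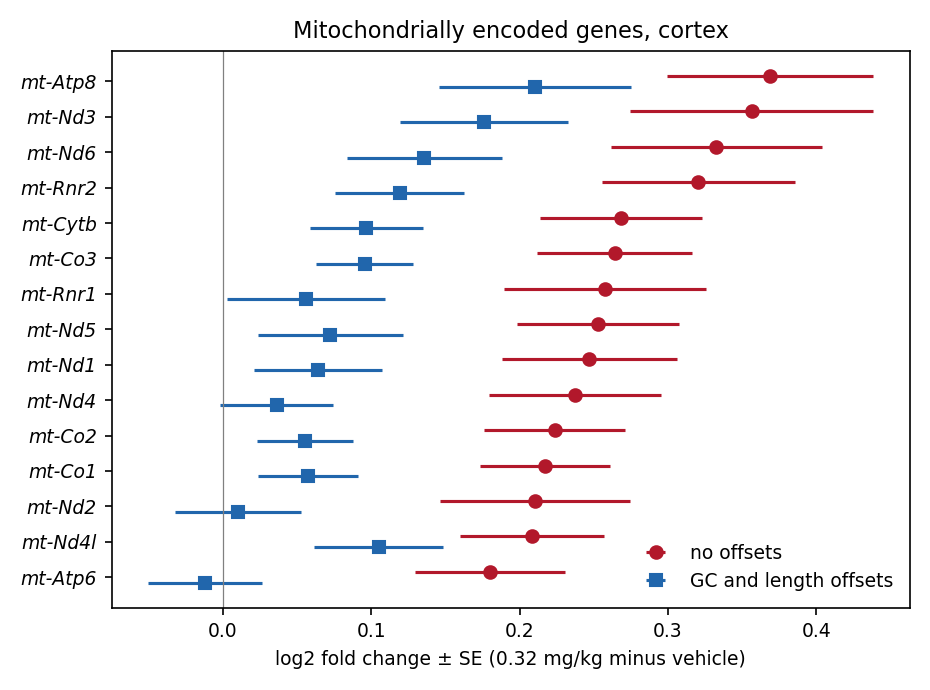
Log2 fold change ± SE (0.32 mg/kg minus vehicle, x axis) of the 15 mitochondrially encoded genes in the cortex, without offsets (circles) and with GC and length offsets (squares). All 15 lie above 0 without offsets, with a median of 0.25, and their median is 0.07 with offsets.

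Among nuclear genes of the respiratory chain, 4 of 39 were called higher and 1 lower without offsets, close to the 10.2% of all genes called, and 2 were called higher with them, beside 0.79% of all genes. Cox7c, a small subunit of cytochrome c oxidase, lay at 60.4 to 72.5 CPM in dosed mice (median 63.8) and 51.0 to 55.7 CPM in vehicle mice (median 54.3), without overlap. It rose by 0.31 ± 0.0568 (adjusted p = 7.60e-04) without and 0.21 ± 0.0486 (adjusted p = 0.0166) with the offsets. Ndufb9, of complex I, averaged 141 ± 4.64 CPM in dosed mice and 131 ± 3.97 CPM in vehicle mice, and rose by 0.10 in both fits (adjusted p = 0.0384 with offsets), a call lost in either fit when any 1 of 11 libraries was left out.

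In cyclic nucleotide signaling, the pathway that the compound acts on, 1 gene stayed called with the offsets, a cyclase subunit. Of 27 enzymes that make or degrade cyclic nucleotides, 1 was called higher and 1 lower without offsets, beside 10.2% of all genes in either direction, and 1 was called with them, beside 1.15%. Gucy1a2 (chromosome 9) encodes an alpha subunit of soluble guanylyl cyclase, the enzyme that makes cyclic GMP in response to nitric oxide. It lay at 4.85 to 11.9 CPM in dosed mice (median 7.13) and 3.51 to 3.89 CPM in vehicle mice (median 3.76). Every dosed mouse lay above every vehicle mouse, and the dosed mice were spread far more widely. Its log2 fold change was 0.97 ± 0.199 (adjusted p = 0.00214) without and 0.87 ± 0.200 (adjusted p = 0.0163) with the offsets, and it was called with each of the 17 libraries left out in turn. At the other doses, compared with the same vehicle libraries, it was 0.76 (adjusted p = 0.0193) at 1.0 mg/kg, where 5.62% of genes were called, and 0.39 (not called) at 3.2 mg/kg, where none was, with offsets. In the striatum it was 0.18 (adjusted p = 0.736), and the difference of the effect between the tissues, 0.66, did not pass (adjusted p = 0.0840).

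The other subunits of soluble guanylyl cyclase were not called. Gucy1a1, the other alpha subunit, lay at 81.2 to 106 CPM in dosed mice and 76.2 to 88.6 CPM in vehicle mice (log2 fold change 0.08 with offsets, adjusted p = 0.457). Gucy1b1, the shared beta subunit, averaged 170 ± 9.22 CPM in dosed mice and 165 ± 6.10 CPM in vehicle mice (-0.04 with offsets, adjusted p = 0.656). Pde10a, the target of the compound (49.5% GC), lay at 79.6 to 113 CPM in dosed mice (median 90.1) and 75.4 to 114 CPM in vehicle mice (median 92.1), and the groups overlapped almost fully. Its log2 fold change was 0.08 ± 0.0950 with the offsets (adjusted p = 0.840). Adcy6, an adenylyl cyclase, fell by 0.13 without offsets (adjusted p = 0.0201), and was at -0.03 with them (adjusted p = 0.735).

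Downstream of the messengers the calls were lost with the offsets. Of 31 effectors, Pkia and Pkib, inhibitors of protein kinase A, and Arpp19, a phosphatase inhibitor regulated by phosphorylation, were called higher, and the CREB coactivator Crtc1 lower, close to the 10.2% over all genes. Pkia averaged 172 ± 10.1 CPM in dosed mice and 158 ± 5.57 CPM in vehicle mice, and was at -0.01 with the offsets (adjusted p = 0.937). With the offsets 0 of the 31 effectors were called. Of 30 activity-regulated and CREB-target genes, 3 were called lower without offsets, beside 4.98% of all genes, and 0 with them, beside 0.358%. They were the AP-1 factor Jund, the secreted neuropeptide precursor Vgf and the immediate-early factor Egr4, with GC contents of 67.1%, 63.6% and 68.2%. Vgf lay at 110 to 181 CPM in dosed mice (median 133) and 141 to 184 CPM in vehicle mice (median 164), and was at -0.30 (adjusted p = 0.00909) without and -0.11 (adjusted p = 0.479) with the offsets. The median of the list was -0.17 without and -0.11 with the offsets, beside 0.00 in both fits over all genes.

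Htt, which carries the knock-in, lay at 107 to 135 CPM in dosed mice (median 122) and 122 to 135 CPM in vehicle mice (median 128). Its log2 fold change was -0.08 ± 0.0459 with the offsets (adjusted p = 0.557). The 24 medium spiny neuron genes and the 14 genes each of astrocytes, oligodendrocytes, and endothelial cells and pericytes had 0 calls in either fit. Of 14 microglia genes, P2ry12, a purinergic receptor, was called higher (0.25) without offsets and 1 other gene lower. The proteoglycan gene Cspg4, of 8 genes of oligodendrocyte precursors, and Slc30a3, a zinc transporter and 1 of 20 genes of cortical excitatory neurons, were called lower without offsets (-0.24 and -0.13). With the offsets these 3 lists had 0 calls. Over all genes, 10.2% were called without and 1.15% with the offsets.

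Among synaptic genes, more were called lower than higher without offsets, and 1 was called with them. Of 39 synaptic vesicle and scaffold genes, with a median log2 fold change of -0.05, 10 were called lower without offsets, with a median GC content of 58.5%, beside 4.98% of all genes, and 1 higher: Snap25, a fusion protein of synaptic vesicles, with 39.2%. Shank1, a scaffold of excitatory synapses with 61.3% GC, averaged 355 ± 22.4 CPM in dosed mice and 443 ± 18 CPM in vehicle mice, and was at -0.33 (adjusted p = 0.00540) without and -0.13 (adjusted p = 0.297) with the offsets. Sv2a, a vesicle glycoprotein and the binding site of levetiracetam, was the 1 call of this list with offsets. It lay at 469 to 521 CPM in dosed mice (median 501) and 538 to 569 CPM in vehicle mice (median 553), without overlap. It fell by 0.15 ± 0.0248 (adjusted p = 2.91e-04) without and by 0.10 ± 0.0206 (adjusted p = 0.00686) with the offsets, and with the L number as a factor the second call was lost (adjusted p = 0.113).

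Receptor and channel genes called lower without offsets were likewise high in GC. The counts below stand beside 5.18% of all genes called higher and 4.98% lower without offsets, and 0.79% and 0.358% with them. Of 36 glutamate and GABA receptor subunits, 3 were called higher (among them Gabra3 and Gabrg1, median GC of the 3 43.1%) and 5 lower (Grin1, Grin2c, Grin2d, Grm2 and Grik5, median GC 59.6%). With offsets 1 was called, Grin1, the obligatory subunit of NMDA receptors. It averaged 478 ± 17.7 CPM in dosed mice and 552 ± 9.64 CPM in vehicle mice, and was at -0.22 (adjusted p = 0.00110) without and -0.10 (adjusted p = 0.0312) with the offsets, a call lost when any 1 of 6 libraries was left out. Of 39 voltage-gated channel genes, 2 were called higher (median GC 39.2%) and 8 lower (median GC 58.6%) without offsets, and 2 higher with them. Kcnh7, a potassium channel of the ERG family, lay at 81.3 to 109 CPM in dosed mice (median 96.5) and 74.7 to 90.2 CPM in vehicle mice (median 79.7). It rose by 0.26 (adjusted p = 0.00692) without and by 0.19 (adjusted p = 0.0417) with the offsets, but lost the second call when any 1 of 11 libraries was left out. Cacnb3, an auxiliary subunit of calcium channels, was at -0.01 without offsets and was called at 0.13 with them (adjusted p = 0.00602). Cacng8, an auxiliary subunit of AMPA receptors that was picked after its values were seen, fell by 0.35 (adjusted p = 1.76e-06) without and by 0.21 (adjusted p = 0.00102) with the offsets.

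Interneuron genes included 2 modest increases that the offsets left in place. Of 14 such genes, 3 were called higher and 1 lower without offsets, beside 5.18% and 4.98% of all genes. With the offsets 2 were called higher, beside 0.79% of all genes, and 0 lower. The summed level of the list overlapped widely. It was 997 to 1187 CPM in dosed mice (median 1058) and 991 to 1107 CPM in vehicle mice (median 1064). Slc32a1 was the gene called lower without offsets. It lay at 76.0 to 104 CPM in dosed mice (median 88.3) and 89.1 to 108 CPM in vehicle mice (median 98.6). Htr3a, a serotonin-gated channel of a class of cortical interneurons, lay at 5.60 to 6.77 CPM in dosed mice (median 5.92) and 4.64 to 5.66 CPM in vehicle mice (median 4.93). It rose by 0.28 ± 0.0623 (adjusted p = 0.00428) without and by 0.29 ± 0.0633 (adjusted p = 0.0123) with the offsets, a call lost with the L number as a factor (adjusted p = 0.0592). Npy, the interneuron peptide neuropeptide Y, lay at 39.1 to 47.6 CPM in dosed mice (median 43.3) and 36.9 to 40.7 CPM in vehicle mice (median 38.4). It rose by 0.14 ± 0.0429 (adjusted p = 0.0252) without and by 0.15 ± 0.0352 (adjusted p = 0.0166) with the offsets, and the call without offsets was lost when vehicle F2 was left out (adjusted p = 0.0678). Between Q175 vehicle mice and WT vehicle mice the log2 fold change with offsets was -0.50 for Htr3a and -0.47 for Npy, in a contrast that called 34.7% of genes. That contrast and the dose contrast share the Q175 vehicle libraries, so their opposite signs are not independent.

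Vip, the peptide of another interneuron class with 38.7% GC, averaged 25.5 ± 2.25 CPM in dosed mice and 22.1 ± 1.1 CPM in vehicle mice. It was called without offsets (0.21, adjusted p = 0.00976) and was at 0.07 with them (adjusted p = 0.671).

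Beyond these lists, the named genes with the largest changes called in both fits came from several cellular roles. Among those higher in dosed mice, Xkr4, of the XKR family of scramblases, lay at 20.7 to 32.3 CPM in dosed mice (median 28.1) and 17.1 to 21.2 CPM in vehicle mice (median 18.4). It rose by 0.48 (adjusted p = 0.00915) without and by 0.44 (adjusted p = 0.0417) with the offsets, but the second call was lost when any 1 of 14 libraries was left out. Tmsb10, an actin-binding thymosin, lay at 78.6 to 102 CPM in dosed mice (median 86.3) and 69.2 to 79.6 CPM in vehicle mice (median 73.8). It rose by 0.27 ± 0.0688 (adjusted p = 0.0111) without and by 0.36 ± 0.0613 (adjusted p = 4.98e-04) with the offsets. At 1.0 mg/kg its median was 90.2 CPM in females and 73.3 CPM in males, and at 3.2 mg/kg 65.6 and 69.4 CPM. Of the 50-base runs in Tmsb10 transcripts, 27% also occur in transcripts of other genes, so its values depend on how shared reads were assigned. Fam213a, a peroxiredoxin-like protein, lay at 82.5 to 113 CPM in dosed mice (median 97.2) and 72.8 to 89.7 CPM in vehicle mice (median 76.8). It rose by 0.32 (adjusted p = 4.35e-04) without and by 0.30 (adjusted p = 0.00121) with the offsets. The smooth muscle protein gene Tagln, the axonemal dynein gene Dnah7b and Kbtbd3 rose by 0.37, 0.23 and 0.23 with the offsets, and lost that call when any 1 of 15, 10 and 9 libraries was left out. Cyb5rl rose by 0.28 with the offsets (adjusted p = 0.0108).

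Prkdc, the catalytic subunit of the DNA-dependent protein kinase, was picked after its values were seen. It rose by 0.20 ± 0.0384 with the offsets (adjusted p = 0.00251), with 38.9 to 49.5 CPM in dosed mice and 37.0 to 42.9 CPM in vehicle mice.

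Among the genes lower in dosed mice, Pcsk1n (chromosome X) encodes proSAAS, an inhibitor of the prohormone convertase PCSK1. It lay at 161 to 411 CPM in dosed mice (median 241) and 259 to 368 CPM in vehicle mice (median 348). Of the dosed mice, M4 was the highest and lay above every vehicle mouse. It fell by 0.46 ± 0.0967 (adjusted p = 0.00247) without and by 0.42 ± 0.0865 (adjusted p = 0.00652) with the offsets. The call with offsets was lost with the L number as a factor (adjusted p = 0.0883) and among L numbers 5 to 8 (adjusted p = 0.125), and there also without offsets (adjusted p = 0.0512). Its striatal value in the same mice was 0.38 (adjusted p = 0.0908), and the difference between the tissues was -0.83 (adjusted p = 0.000343, mouse as a block). Scand1, a small protein related to zinc finger factors with 68.4% GC, lay at 2.47 to 9.15 CPM in dosed mice (median 4.31) and 5.06 to 8.46 CPM in vehicle mice (median 7.6), again with M4 the highest. It fell by 0.77 (adjusted p = 6.65e-04) without and by 0.50 (adjusted p = 0.0102) with the offsets.

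Klf5, a zinc finger transcription factor, lay at 3.37 to 4.53 CPM in dosed mice (median 3.92) and 4.43 to 5.64 CPM in vehicle mice (median 4.81). It fell by 0.33 (adjusted p = 0.00221) without and by 0.37 (adjusted p = 0.00251) with the offsets. Pgp, a metabolite phosphatase, and Zfp771, a zinc finger protein, fell by 0.30 (adjusted p = 0.00143) and 0.26 (adjusted p = 0.00338) with the offsets. Tpbg, a membrane glycoprotein that modulates Wnt signaling, lay at 7.37 to 9.28 CPM in dosed mice (median 8.20) and 9.50 to 11.2 CPM in vehicle mice (median 9.68), without overlap. It fell by 0.27 (adjusted p = 0.0316) with the offsets. The orphan receptor Gpr135 and the metalloprotease Adamts8 fell by 0.29 and 0.24 with the offsets. Of these 3 calls, that of Tpbg was lost when any 1 of 8 libraries was left out, that of Gpr135 with 2 and that of Adamts8 with 14.

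**Figure D4:**
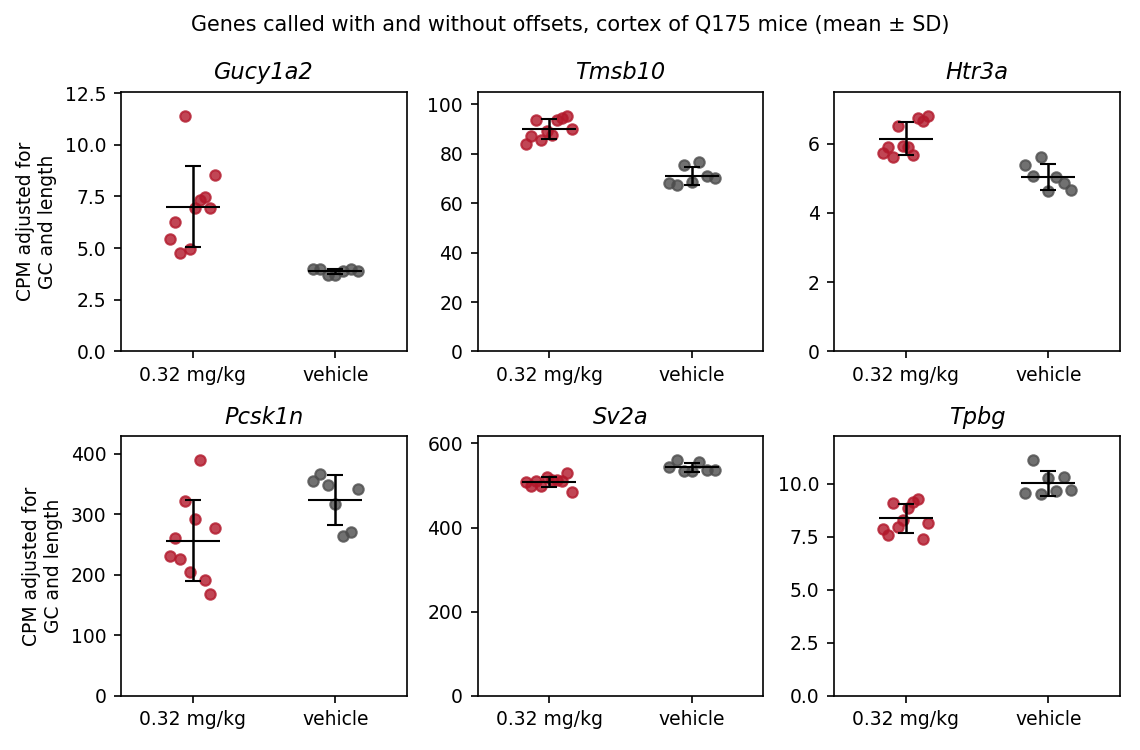
CPM adjusted for GC content and length (y axis, from 0) of 6 genes called in both fits, in the cortex of Q175 mice at 0.32 mg/kg (left) and on vehicle (right). Points are mice, and bars are mean ± SD. Gucy1a2, Tmsb10 and Htr3a are higher and Pcsk1n, Sv2a and Tpbg lower in dosed mice, and only Pcsk1n overlaps between the groups. With offsets and the L number as a factor, Htr3a, Pcsk1n, Sv2a and Tpbg were not called.

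The 5 blood genes fell together, and this rested on 1 vehicle library. All 5 were called lower without offsets, with a median of -1.09, and Alas2, an enzyme of heme synthesis in red cells, was also called with them. Hbb-bs, a beta globin, lay at 46.4 to 99.0 CPM in dosed mice (median 68.4), and at 34.6 to 678 CPM in vehicle mice (median 68.6), where F4 held the highest value. Without vehicle F4, 0 of the 5 were called in either fit, Hbb-bs was at 0.13 (adjusted p = 0.680) and Alas2 at -0.04 (adjusted p = 0.921) without offsets. Reads shared between near-identical globin genes make their single values uncertain.

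Ribosomal protein genes, which build the cytosolic ribosome, had more calls higher than lower in both fits. Of 39 such genes, 8 were called higher and 1 lower without offsets (median 0.07), beside 5.18% and 4.98% of all genes. With the offsets 4 were called higher and 1 lower (median 0.06), beside 0.79% and 0.358% of all genes. Rps19, of the small subunit, lay at 133 to 152 CPM in dosed mice (median 140) and 121 to 133 CPM in vehicle mice (median 130), and the groups met at their edges without overlapping. It rose by 0.15 (adjusted p = 0.0205) without and by 0.19 (adjusted p = 0.0132) with the offsets. Rpl27, of the large subunit, was the 1 gene of this list called lower. It fell by 0.24 with the offsets (adjusted p = 0.0338), a call lost when any 1 of 11 libraries was left out. These genes have many near-identical copies in the genome: 23.5% of the 50-base runs in Rpl27 transcripts and 6.37% of those of Rps19 also occur in transcripts of other genes, so their values depend on how shared reads were assigned, which is not given in the sources used here.

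Pseudogenes were among the largest changes. Of the 5 genes called with an absolute log2 fold change above 1 with offsets, 3 were processed pseudogenes (Gm14303, Gm14117 and Rps25-ps1), and the others were Alas2 and the noncoding RNA gene Gm26735 (3.39, adjusted p = 0.0410). The calls of Gm26735, Gm14117 and Alas2 with offsets were lost with the L number as a factor and when single libraries were left out. Pseudogenes made up 502 of the tested genes, of which 32 were called without offsets (6.37%) and 14 with them (2.79%), beside 11.1% and 1.17% of protein-coding genes. Gm14303 (chr2:172509521-172509691, minus strand, GRCm38), picked after its values were seen, is a processed pseudogene annotated at 171 bases, and every 50-base run in it also occurs in transcripts of other genes, most often of the ribosomal protein gene Rps29. It lay at 0 to 0.752 CPM in dosed mice (median 0.0729), with 0 in 4 of the 10, and 7.30 to 24.0 CPM in vehicle mice (median 15.5). No dosed library approached the lowest vehicle library (edgeR adjusted p = 5.34e-09 with offsets). Rps29 itself averaged 184 ± 7.77 CPM in dosed mice and 162 ± 12.3 CPM in vehicle mice (0.21, adjusted p = 0.0170 without offsets, 0.17, adjusted p = 0.0736 with them).

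Rps25-ps1, a processed pseudogene of the ribosomal protein gene Rps25, moved in the opposite direction. It lay at 4.47 to 6.15 CPM in dosed mice (median 5.00) and 2.11 to 2.69 CPM in vehicle mice (median 2.32), without overlap, and rose by 1.14 ± 0.134 (adjusted p = 5.48e-07) without and by 1.11 ± 0.131 (adjusted p = 6.68e-07) with the offsets. Rps25 was at 0.06 ± 0.0389 (adjusted p = 0.381) without offsets. Rpl37rt, a retrotransposed copy of Rpl37, lay at 24.3 to 33.1 CPM in dosed mice (median 30.3) and 35.9 to 40.5 CPM in vehicle mice (median 38.1), and fell by 0.40 with the offsets (adjusted p = 3.53e-06). Rpl19-ps11 fell by 0.81 (adjusted p = 0.0141), with 1.99 to 3.86 CPM in dosed mice and 4.37 to 7.69 CPM in vehicle mice, a call lost without vehicle F5 (adjusted p = 0.0532) and with the L number as a factor. Tpt1-ps3 rose by 0.29 (adjusted p = 0.00104), with 56.7 to 74.9 CPM in dosed mice and 42.5 to 57.2 CPM in vehicle mice. All 50-base runs in Tpt1-ps3 (100%) also occur in transcripts of other genes, most often of Tpt1. For Rpl19-ps11 the share was 90.8%, for Rps25-ps1 69.6% and for Rpl37rt 38.5%. The values of these 4 therefore depend on how shared reads were assigned, and changes of the copies themselves were not separated from that.

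The pseudogene and its parent differ at 4 of 378 aligned bases (98.9% identical), which shows how little sequence separates them. The 60-base stretch with the most differences holds 2, marked in capitals, from Rps25-ps1 (chr6:145266403-145266462, plus strand) and from the coding sequence of Rps25 (chr9:44407988-44408047, plus strand), both GRCm38.
Rps25-ps1: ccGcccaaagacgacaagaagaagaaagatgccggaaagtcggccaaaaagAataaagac
Rps25: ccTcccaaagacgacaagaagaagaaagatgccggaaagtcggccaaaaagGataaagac

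The levels of both pseudogenes split the cortex libraries of the series in a way that the dose alone does not. At 1.0 mg/kg, Gm14303 lay at 0.0232 to 6.95 CPM in females (median 0.491) and 13.1 to 22.9 CPM in males (median 18.6). Rps25-ps1 lay at 3.97 to 5.93 CPM in those females and 2.0 to 2.92 CPM in those males. At 3.2 mg/kg Gm14303 lay at 6.69 to 19.3 CPM in females and 10.1 to 18.5 CPM in males, and WT vehicle mice ran from 16.9 to 24.0 CPM. The library names also carry an LB number, which the labels do not explain. It ran from 9 to 13 in females and 14 to 19 in males at 0.32 mg/kg and from 20 to 25 in females at 1.0 mg/kg, was 27, 1, 2, 3 and 4 in the males at 1.0 mg/kg, and ran from 14 to 19 in females and 20 to 21 in males on Q175 vehicle. At 3.2 mg/kg it ran from 5 to 9 in females and 10 to 13 in males, and WT vehicle libraries had 1 to 5, 22, 23, 25 and 27. Low levels of Gm14303 were seen in the 0.32 mg/kg libraries and in females at 1.0 mg/kg. Libraries at 3.2 mg/kg and on Q175 or WT vehicle carry some of the same numbers and mostly had higher levels. Whether a number that recurs in several arms marks the same thing is not given. The relation of these levels to the LB number was not tested. LB numbers run together by group and sex, so group and any property of the libraries that goes with these runs cannot be told apart in the comparison of 0.32 mg/kg with vehicle.

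**Figure D5:**
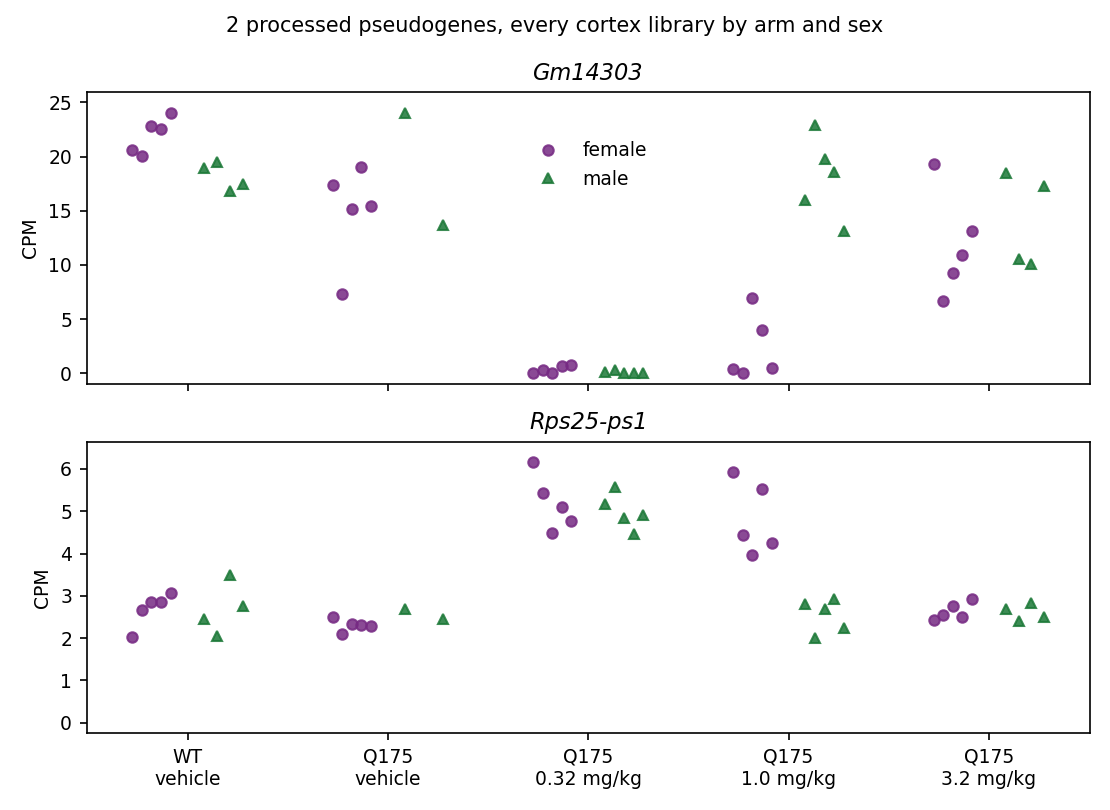
CPM (y axis) of Gm14303 (top) and Rps25-ps1 (bottom) in every cortex library by arm (x axis) and sex (circles female, triangles male). For Gm14303 the 0.32 mg/kg libraries lie at 0 to 0.752 CPM and the 1.0 mg/kg females at 0.0232 to 6.95 CPM, where the highest is above the lowest 3.2 mg/kg female (6.69 CPM). For Rps25-ps1 these libraries lie at 3.97 to 6.15 CPM.

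The counts of called genes, taken separately for each sex from 1 fit with a term for arm and sex together, were set beside these values. With offsets, 0.32 mg/kg minus vehicle gave 62 calls in females (0.358%, 5 against 5) and 7 in males (0.0404%, 5 against 2). The 1.0 mg/kg dose minus vehicle gave 667 in females (3.85%) and 1 in males (0.00577%), and 3.2 mg/kg minus vehicle gave 0 in both (519 and 824 genes at an unadjusted p under 0.05). All of these share the vehicle libraries of their sex. Directly compared, 0.32 and 1.0 mg/kg differed at 0 genes in females (1429 at an unadjusted p under 0.05) and at 60 in males (0.346%, and 3352), both 5 against 5. The difference between the sexes was not tested.

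Over both sexes, 0.32 mg/kg differed from 1.0 mg/kg at 5 genes (0.0284%) without and 9 (0.0519%) with the offsets, and from 3.2 mg/kg at 73 (0.415%) without and 51 (0.294%) with them. With the mouse as a block, the effect of 0.32 mg/kg also differed between cortex and striatum of the same mice. It did so at 4795 of 18014 genes (26.6%) without offsets and at 621 (3.5%) with them. That fit used all 90 libraries, so its counts cannot be ranked against those between doses. In the striatum itself 431 genes (2.49%) were called without and 20 (0.117%) with the offsets. Tmsb10 was among the genes whose effect differed, with 0.36 in the cortex and -0.16 in the striatum (difference 0.52, adjusted p = 1.68e-06). Gm14303 differed too, at -6.22 in the cortex and -0.25 in the striatum (difference -5.94, adjusted p = 7.03e-09).

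Of the 126 genes called in both fits, 37 were called with offsets and the L number as a factor, 74 with offsets among L numbers 5 to 8 alone, and 55 with offsets whichever library was left out. Cyb5rl and Rpl35 were among the genes that met all of these criteria but lost the call without offsets when single libraries were left out. There were 27 genes that met all of these criteria and were also called without offsets whichever library was left out. Besides 7 annotated pseudogenes, they included Gucy1a2, Klf5, Tmsb10, Fam213a, Zfp771, Cacng8 and Prkdc, the selenoprotein gene Selenow, and the mitochondrial proteins Higd1a and Atpif1. All 126 kept their sign with the L number as a factor and among L numbers 5 to 8. Among those that lost the call with offsets and the L number as a factor were also Xkr4, Scand1, Cox7c, Npy, Grin1, Kcnh7, Ndufb9, Rps19, Rpl27, Tagln, Dnah7b, Kbtbd3, Gpr135 and Adamts8.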

How the data were processed

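Total RNA of the right cortex and striatum was sequenced on libraries made from enriched RNA subfractions, per the labels' protocols. The authors deposited 1 table of estimated counts per gene and 1 table of FPKM (fragment counts scaled to gene length and library size); CASAVA 1.8.2 is named, with no role, per the submitters' processing notes. The aligner, genome build, annotation, strand setting and handling of shared reads were not given in the sources used here. Of the deposited counts, 81.5% were whole within a tolerance of 1e-06, and all were rounded. GENCODE M21 (GRCm38) named 36723 of 38561 gene identifiers, holding 99.7% of counts, and gave GC content, length and sequences; the authors' build may differ.

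Counts of all 45 cortex libraries were fitted with edgeR 4.0.16 (R 4.3.3; quasi-likelihood test, TMM, filterByExpr, terms for arm and sex), and the contrast was 0.32 mg/kg minus vehicle, with Benjamini-Hochberg adjustment over all genes tested and a threshold of 0.05. A second fit added an offset per gene and library from natural splines (5 degrees of freedom each) of the library's log2 CPM deviation on GC content and log10 length. CPM was computed with these TMM library sizes. GC slopes were compared with two-sided exact permutation tests over 19448 arrangements, whose smallest p is 5.14e-05. DESeq2 1.42.0 and limma 3.58.1 on log2(FPKM + 0.1) and log2(FPKM + 1) served as alternatives. The fits were also run on simulated counts with known fold changes, a linear GC trend and the same dispersion for every gene. These settings are simpler than the data, so that run cannot judge the calls reported here. All 136 pairs of the 17 libraries differed by more than sampling noise, with a chi-square of at least 3.82 per degree of freedom.

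Genes were named by rule: Htt and Pde10a; among genes called in both fits and not below 0 in mean log2 CPM, the 12 rising and 12 falling most with offsets; for every list, its 4 lowest p-values; and 5 examples whose very low p was lost with offsets. Predicted genes that lack a name were skipped. Gm14303, Cacng8, Prkdc and other genes given beyond this rule were chosen after their values were seen. A few genes that these rules or the lists select are not reported here. The members and the gene lists were chosen with earlier results of these data known.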

Additional observations from a re-analysis of the deposited data

Results flagged for a closer look

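Among 162 sets of values of 1 group examined for a library standing far from the rest, 13 had one, where chance gives about 1 in 20. Of the dosed libraries, M4 was the one that stood apart each time. Its GC slope was 0.0734, and it was the highest dosed library for Scand1 (9.15 CPM), Gpr135 (7.19 CPM), Rpl13 (269 CPM) and Rps15 (333 CPM). Without M4 the difference of GC slope between dosed and vehicle libraries was -0.115 (exact permutation test, p = 8.74e-05, the smallest that 9 against 7 can give), and 2352 genes were called without and 218 with the offsets.

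Vehicle F4 stood apart for all 5 blood genes, with 20.9 CPM for Alas2, 209.7 CPM for Hba-a1, 380.2 CPM for Hba-a2, 678 CPM for Hbb-bs and 155 CPM for Hbb-bt. Among the other vehicle libraries, M2 was far above the rest for Fam213a (89.7 CPM), F5 for Kbtbd3 (5.41 CPM) and F2 for Map1s (64.2 CPM).

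The GC slope difference between dosed and vehicle mice itself differed between the tissues, by -0.208 log2 CPM per 10 percentage points as cortex minus striatum of the same mice (exact permutation test, p = 0.000154).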

How the results depend on the processing

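The counts of calls depended on which libraries entered and on the terms and offsets of the fit. Without offsets they were 2822 with only the 17 libraries fitted, 327 with the L number as a factor, 1148 in females, 2 in males, and 1019 in females and 4 in males with a term for arm and sex together. Leaving out 1 library gave 923 to 2352. With offsets they were 370, 55, 59, 5, 62 and 7 in the same settings, 101 to 218 with 1 library left out, 300 with GC offsets alone and 2201 with length offsets alone. The term for arm and sex and the fits of males were added after seeing the data. DESeq2 gave 2211 without and 292 with offsets, and limma on FPKM gave 1500 and 1516.

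The 0.32 minus 1.0 mg/kg count of 5 was 9 with offsets, and by sex 0 in females and 18 in males without and 0 and 60 with offsets. The 0.32 minus 3.2 mg/kg count of 73 was by sex 7 and 7 without and 8 and 17 with offsets. The cortex minus striatum count of 4795 was 621 with offsets. The GC slope difference was -0.0767 in males (exact permutation test, p = 0.286, 5 against 2), and -0.115 to -0.0930 with 1 library left out. The cause of these shifts was not tested, beyond the smaller number of libraries in several settings.

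With offsets the sign turned for 162 of the 1789 genes called without them, among them mt-Atp6 (-0.012) and Pkia (-0.01), and also for Akt1 (0.11) and Cacnb3 (0.13), which were called with offsets alone. With 1 library left out, Hba-a1 ran from -1.22 to 0.055, Hba-a2 from -1.20 to 0.13 and Hbb-bs from -1.26 to 0.13, each positive without vehicle F4. Replicate numbers did not pair the mice: same-numbered deviations correlated at -0.116 to 0.0924. The replicate block gave 1265 calls without and 148 with offsets, and 87 of the 126 genes called in both fits were called under it with offsets. Depth limits the lowest genes most, and males rest on 2 vehicle mice.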
